A study of Mus musculus with 137 samples.

Results

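The 44 genes described here are cell cycle genes, chosen by symbol from the 34573 symbols of each count table for their roles in DNA replication, mitosis and the passage through G1, and all 44 were present. They were read in macrophages grown from mouse bone marrow, at rest and after inflammatory stimulation, in 3 separately tabulated cohorts that differ in the allele of Beclin1 (gene symbol Becn1), an autophagy protein. In the cohorts named KO1 and KO2, marrow came from Beclin1flox/flox-LysM-Cre+ mice (the knockout, KO) and Beclin1flox/flox-LysM-Cre- mice (called WT), so both genotypes carry the floxed allele and only the knockout carries Cre, driven by the myeloid gene for lysozyme M. In the cohort named KI, marrow came from Beclin1F121A/F121A mice, which carry a point mutation, and from littermate controls (WT). Mice were 7 weeks old, marrow was grown for 7 days in M-CSF at 20 ng/ml, and cells were taken at rest (0 h) or after 6 h or 24 h with LPS and IFN-gamma, each at 100 ng/ml. KO1 has 3 cultures per genotype, each followed at the 3 times with 3 repeat libraries that were summed. Each KO2 group holds 8 libraries, except WT at 24 h with 7, and each KI group holds 6. The labels leave unsaid if these are separate animals or cultures, so their p-values measure the spread between libraries, which may be technical.

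Cells that divide switch on their cell cycle genes in waves. D-type cyclins with CDK4 and CDK6 release E2F factors from the retinoblastoma protein family, E2F factors drive genes for replication and nucleotide supply, and the mitotic genes follow late in the cycle through promoters with a CHR word (cell cycle genes homology region) and CCAAT boxes. Bone marrow macrophages divide in response to M-CSF, and LPS and interferon-gamma are both known to arrest that growth, with the CDK inhibitor p21 (gene symbol Cdkn1a) among the genes they induce.

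Because CHR and E2F words fell differently by role, 3 promoters are printed, each as the 250 bases before and 50 bases after the start of the RefSeq gene model on build GRCm38.p6, read 5′ to 3′ on the gene's own strand. Ccnb2, a mitotic B-type cyclin, lies at chr9:70421505-70421804 on the minus strand. Mki67, which encodes the proliferation antigen Ki-67, lies at chr7:135716330-135716629 on the minus strand. Mcm5, a subunit of the replicative helicase, lies at chr8:75109259-75109558 on the plus strand. Capitals mark every match to the CHR words TTTGAA and TTCGAA, to CCAAT, or to the E2F words TTTCCCGC, TTTCGCGC, TTTGCCGC and TTTGGCGC, on either strand.
Ccnb2: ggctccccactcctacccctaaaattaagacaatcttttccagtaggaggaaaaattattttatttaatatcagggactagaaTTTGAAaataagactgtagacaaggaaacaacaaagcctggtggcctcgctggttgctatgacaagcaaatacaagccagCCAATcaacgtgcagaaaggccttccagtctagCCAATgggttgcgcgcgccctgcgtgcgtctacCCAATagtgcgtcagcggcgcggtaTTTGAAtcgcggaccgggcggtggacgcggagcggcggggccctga
Mki67: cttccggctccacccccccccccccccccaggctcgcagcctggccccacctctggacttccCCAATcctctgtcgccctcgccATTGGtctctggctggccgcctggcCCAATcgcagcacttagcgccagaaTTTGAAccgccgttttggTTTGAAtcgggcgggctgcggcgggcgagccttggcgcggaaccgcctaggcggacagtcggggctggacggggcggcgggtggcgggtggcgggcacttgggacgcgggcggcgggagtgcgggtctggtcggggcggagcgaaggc
Mcm5: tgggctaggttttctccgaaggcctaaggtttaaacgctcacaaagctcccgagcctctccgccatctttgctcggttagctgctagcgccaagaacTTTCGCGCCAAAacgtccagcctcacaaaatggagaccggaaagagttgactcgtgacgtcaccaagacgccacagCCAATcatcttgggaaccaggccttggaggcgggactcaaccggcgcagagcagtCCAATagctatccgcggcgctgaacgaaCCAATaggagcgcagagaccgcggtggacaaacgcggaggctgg
Ccnb2 and Mki67 each hold 2 CHR words and 3 CCAAT words and no E2F word, whereas Mcm5 holds 3 CCAAT words and 2 E2F words that overlap, and no CHR word.

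Windows were found for 36 of the 44 genes. Of these, 18 (50%) held a CHR word, against 21.7% of the 27025 genes with a window, and 27 (75%) held CCAAT, against 41.1%. Both words stood in 17 (47.2%), against 8.61% of all genes. An E2F word stood in 6 (16.7%), against 2.6%. The words were split by role. Among the mitotic cyclins and kinases 6 of 7 held a CHR word and 1 of 7 an E2F word, and among the anaphase, chromosome and spindle genes 9 of 13 held a CHR word and 0 an E2F word. Among the replication genes 5 of 8 held an E2F word and 3 of 8 a CHR word. None of the 4 nucleotide synthesis genes and none of the 4 G1 genes with a window held either. These matches describe letters in a window, and no factor's binding was measured.

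Counts in genes per library ran from 1898574 to 6579185 in KO1, from 1448218 to 15627379 in KO2 and from 3574158 to 11786453 in KI, and the 44 genes together took between 1039 and 45641 counts of a library. Becn1 stood at a mean of 51.2 CPM (a gene's share of the counts of its library, in the usual CPM unit) in resting KO1 WT and 20.0 in KO, and at 42.5 and 4.87 in KO2, and it was called lower in KO at all 3 times in both cohorts, while in KI it was 49.1 and 48.6. All 8 defining macrophage markers had counts in every group. Their summed level went from a median of 37800 CPM at rest to 25977 at 6 h and 21307 at 24 h in KO1 WT and from 29517 to 29108 and 13291 in KO. It went from 49577 to 23296 and 29250 in KO2 WT and from 24016 to 18947 and 18217 in KO, with resting ranges apart (45683 to 53739 in WT, 22261 to 27278 in KO). In KI it went from 106849 to 40237 and 23320 in WT and from 94175 to 36008 and 19272 in F121A. The 8 markers include Lyz2, the lysozyme M gene that drives Cre in the knockouts, and it holds a large part of the sum. Over all times its median was 13926 CPM in KO1 WT and 5868 in KO, and 16298 in KO2 WT and 6210 in KO. In KI it was 33857 in WT and 29955 in F121A. The summed level is therefore not read as macrophage content between genotypes. The part of these shifts in the results below was not tested. In KO2 all WT libraries carried Xist, from 70.0 to 340 CPM, and all KO libraries carried the Y-linked gene Ddx3y, from 5.33 to 24.3 CPM, so knockout and sex cannot be told apart there. In KO1 both genotypes carried Ddx3y and in KI both carried Xist. Of the resting libraries, the KO1 knockout culture S37 stood apart, with 252 to 380 CPM of mitotic, anaphase and spindle genes in its repeats against 99.2 to 128 in those of the other KO cultures, and so did KI F121A library 5. Labels of 2 samples conflict between fields. The libraries keep no strand, so counts may be shared where exons overlap another protein-coding gene, as they do for 11 of the genes (Nusap1, Ube2c, Ccna2, Cdc20, Tacc3, Mcm7, Ccnd1, Tk1, Cdc45, Ccnd3 and Kif20a) and for Becn1. Because cells were sampled in bulk, fewer cells of a type and less RNA per cell cannot be told apart.

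At rest, summed levels differed by role and by cohort. The 10 replication genes together reached 632 ± 239 CPM (SD, n = 3) in KO1 WT, 251 ± 19 (n = 8) in KO2 WT and 205 ± 23.9 (n = 6) in KI WT. The 9 mitotic cyclins and kinases reached 54 ± 22.6, 16.5 ± 2.66 and 37 ± 5.35 CPM. The resting level was thus highest in KO1 for these roles, a difference between tables that was not tested. Per kilobase of annotated exon, Cdkn1a, Pcna and Mcm6 were the 3 highest of the 44 genes in every resting group, and at 6 h Cdkn1a, Ccnd2 and Pcna were.

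**Figure D1:**
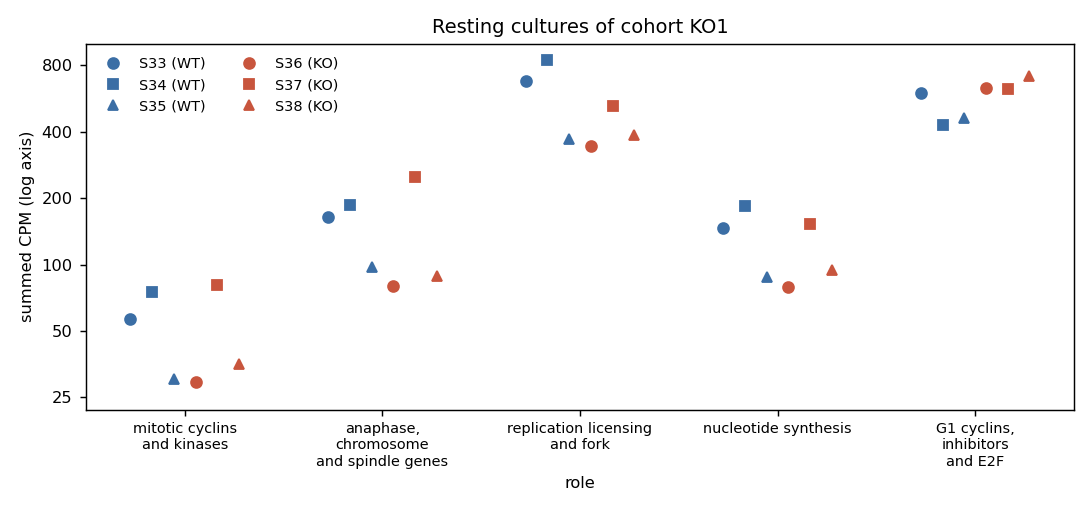
Summed CPM of the genes of each role (vertical log axis) in the 3 WT cultures (S33 to S35) and 3 KO cultures (S36 to S38) of KO1 at rest, 1 point per culture. The WT culture S35 and the KO cultures S36 and S38 lie close together for replication, at 372, 343 and 386 CPM, while WT cultures S33 and S34 lie above them at 681 and 842.

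Within KO1 the resting cultures of 1 genotype differed from each other. Replication genes summed to 681, 842 and 372 CPM in the WT cultures S33, S34 and S35, and to 343, 525 and 386 CPM in the KO cultures S36, S37 and S38. Mitotic cyclins and kinases summed to 56.5, 75.2 and 30.3 CPM in WT and to 29.4, 80.8 and 35.6 in KO. In each genotype 1 culture thus departed from the other 2 for the mitotic genes, S35 downwards in WT and S37 upwards in KO, and the genotypes overlapped. S37 also carried 1395 CPM of neutrophil markers, the highest of the KO1 resting cultures. The other KO cultures were at 318 and 376, and the WT cultures at 163 to 260. The part of these markers in the levels of S37 was not tested.

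Stimulation for 6 h lowered most of the genes in WT cells of all 3 cohorts. In edgeR's quasi-likelihood test with Benjamini-Hochberg adjustment over all genes (called at an adjusted p under 0.05), 26 of 44 genes fell and 6 rose in KO1, where 31.1% of all genes tested fell and 25.7% rose. In KO2, 33 genes passed the filter on low counts, and 18 fell and 8 rose, against 38.3% and 32.5% of all genes. In KI, 43 passed, and 28 fell and 10 rose, against 36.8% and 36.7%. Median log2 fold changes of the genes tested were -1.86 in KO1, -1.13 in KO2 and -1.44 in KI, beside -0.09, -0.11 and 0.00 over all genes. The KO2 filter left out 11 of the genes, all of them mitotic or replication genes with few counts there (Ccnb1, Ccnb2, Plk1, Bub1, Cdc20, Kif11, Kif20a, Kif2c, Nusap1, Cdc6 and Cdc45), so the KO2 counts cover the more abundant ones, and in KI Cdc6 was left out.

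Fold changes are relative to the typical gene, and the scaling matters here. Scaling by total counts in place of TMM moved the median of all genes in WT at 6 h by -1.02 in KO1, -0.82 in KO2 and -1.20 in KI, and at 24 h by -1.02, -0.44 and -0.88. In mutants it moved it by -1.27, -0.79 and -1.3 at 6 h and by -1.08, -0.64 and -0.97 at 24 h. The 6 h split in WT then became 33 lower and 3 higher in KO1, 25 and 5 in KO2 and 34 and 4 in KI. The matching shares of all genes under total counts were not counted. The total-count splits here and below thus have no background beside them. The median of the genes minus that of all genes was -1.75, -1.02 and -1.44 under total counts. Under TMM it was -1.77, -1.02 and -1.44. CPM values below are unscaled shares of a library's counts, so a gene can fall in CPM and still have a positive fold change.

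**Figure D2:**
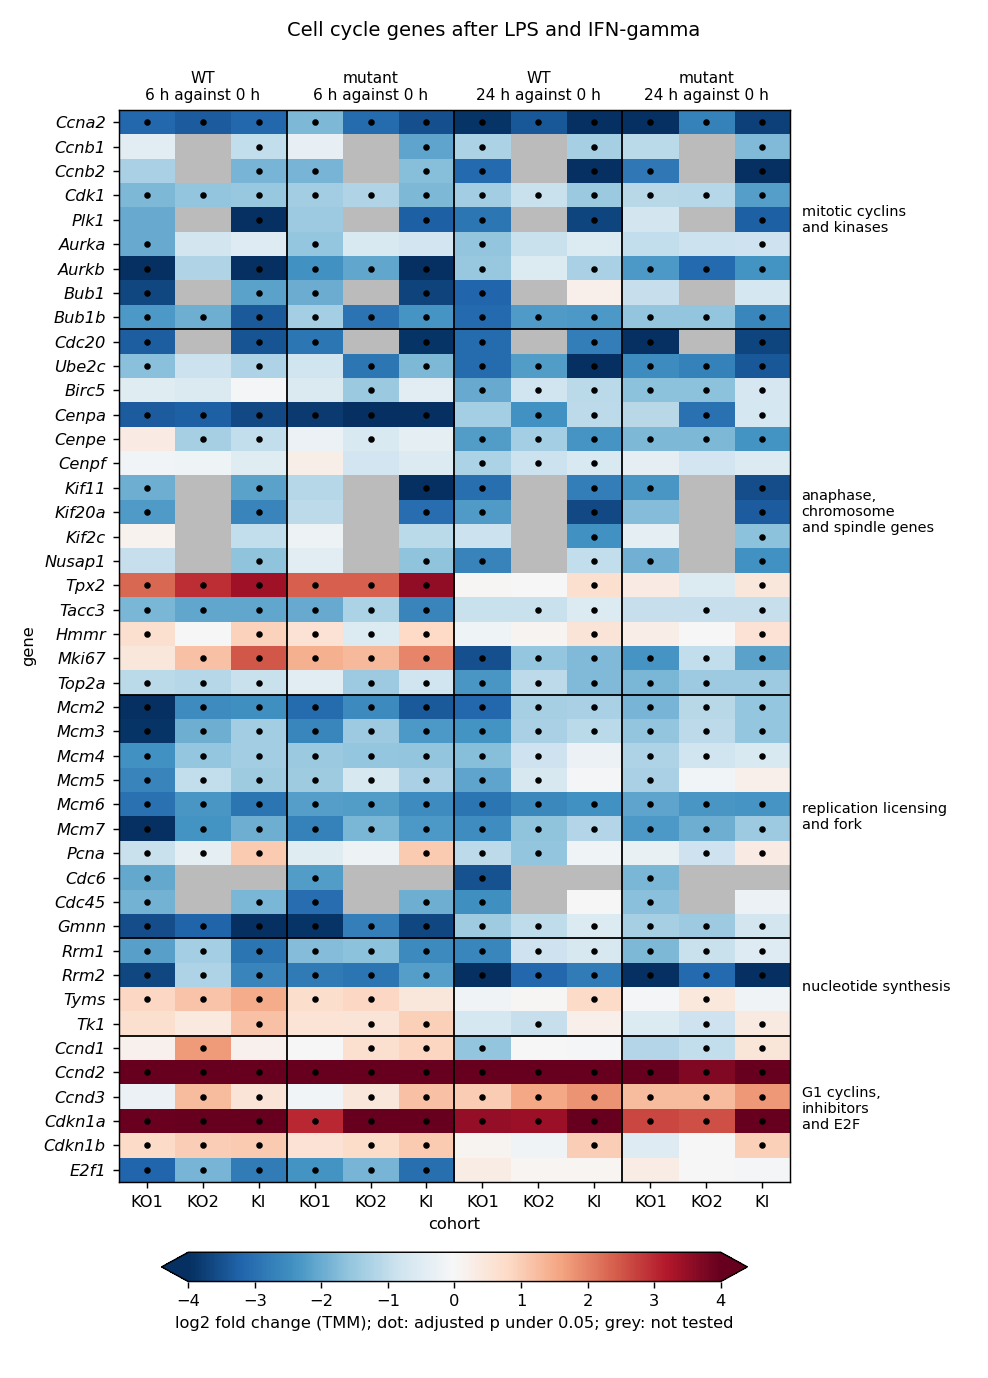
Log2 fold changes of the 44 genes (rows, by role) at 6 h and 24 h against 0 h in WT and mutant cells of KO1, KO2 and KI (columns), TMM scaled, with colours saturating at -4 and 4, a dot for an adjusted p under 0.05 and grey for genes that were not tested. Most replication genes are blue, while Ccnd2 and Cdkn1a are red in every column; the smaller positive values of Tyms, Hmmr, Tk1, Cdkn1b and others turn negative in some cohorts under total-count scaling.

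The replication genes gave the most even fall. The MCM2 to MCM7 subunits form the helicase that is loaded at origins, and all 6 of their genes fell in all 3 cohorts, with log2 fold changes from -5.42 ± 0.76 (SE; Mcm2, KO1) to -0.97 ± 0.23 (Mcm5, KO2). Mcm6 stood at 244, 299 and 176 CPM in the resting KO1 WT cultures S33, S34 and S35 and at 18.6, 14.1 and 11.9 at 6 h. In KO2 WT its lowest, median and highest libraries were at 53.1, 92.6 and 111 CPM at rest and 4.99, 9.42 and 14.3 at 6 h, and in KI WT at 63.5, 79.0 and 111 and then 3.69, 4.69 and 6.15. No 6 h sample reached any resting sample in any cohort. The log2 fold changes of Mcm6 were -3.0 ± 0.26 (adjusted p = 1.2e-08), -2.33 ± 0.17 (2.6e-18) and -2.91 ± 0.16 (3.1e-20) in KO1, KO2 and KI. Gmnn, which encodes the licensing inhibitor geminin, stood at 25.2, 29.8 and 11.2 CPM at rest in KO1 and at 0.559, 1.47 and 0.693 at 6 h. Its KO2 medians were 17.1 and 1.15 CPM and its KI medians 15.4 and 0.50, again without overlap, with log2 fold changes of -3.54 ± 0.46 (adjusted p = 3e-06), -3.21 ± 0.23 (3.3e-19) and -3.98 ± 0.25 (5.1e-18). The printed Mcm5 fell by 2.64 ± 0.32, 0.97 ± 0.23 and 1.44 ± 0.22 on the log2 scale in KO1, KO2 and KI. Cdc6 and Cdc45, which load and activate the helicase, fell in KO1, and Cdc45 also in KI.

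Pcna, the sliding clamp of the replication fork, went against its role in KI. It stood at 187, 215 and 80.4 CPM in resting KO1 WT and at 39.4, 64.0 and 25 at 6 h, and in KO2 WT at 74.1, 80.7 and 135 (lowest, median, highest) and then 27, 36.4 and 59.3. Both sets were apart, and the log2 fold changes were -0.88 ± 0.32 (adjusted p = 0.024) in KO1 and -0.39 ± 0.14 (0.012) in KO2. In KI WT, Pcna ran from 45.1 to 63.5 CPM at rest and from 38.2 to 56.1 at 6 h, which overlap, and its log2 fold change was 1.05 ± 0.11 (adjusted p = 1.3e-11) on the TMM scale but -0.16 under total counts. Pcna has 2 annotated pseudogenes, and reads shared with near-identical copies may be split.

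Mitotic cyclins and kinases fell too, where they had enough counts to be tested: 6 of 9 in KO1, 3 of 5 in KO2 and 8 of 9 in KI, with none higher. Of all genes 31.1%, 38.3% and 36.8% fell. Ccna2, Cdk1 and Bub1b, encoding cyclin A2, the mitotic CDK and a spindle checkpoint kinase, fell in all 3 cohorts. Cdk1 ran from 10.5 to 24.5 CPM at rest in KO1 WT and from 2.21 to 2.65 at 6 h, and its KO2 median moved from 6.96 to 0.991 CPM. Its log2 fold changes were -1.78 ± 0.37 (adjusted p = 0.00046), -1.59 ± 0.31 (7.6e-06) and -1.53 ± 0.25 (6.1e-07). Aurkb, the kinase of the chromosomal passenger complex, stood at 7.25, 6.84 and 3.01 CPM in KO1 at rest and at 0, 0.245 and 0.231 at 6 h, a total of 4 counts, with a log2 fold change of -4.0 ± 0.59 (adjusted p = 1.4e-05). In KI, Ccna2 fell by 3.14 ± 0.39 on the log2 scale (adjusted p = 2.3e-09), from a mean of 4.81 to 0.215 CPM. Ccnb1, cyclin B1, moved by -0.42 ± 0.44 in KO1 (adjusted p = 0.43, but -1.44 with 0.019 under total counts) and by -0.98 ± 0.30 in KI (0.0035). All its 6 h values lay below all resting values in CPM in both. Several of these genes were near the floor at 6 h. In KO1 WT, Bub1 had 3 counts at 6 h against 99 at rest, a ratio of 0.0367 with a 95% exact counting interval from 0.00744 to 0.11. In KI WT, Plk1, polo-like kinase, had 1 count against 101, a ratio of 0.00923 (interval 0.000231 to 0.0526). Such intervals cover counting error only, since amplified reads without molecular barcodes are not independent molecules.

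The anaphase, chromosome and spindle genes split into those that fell and a few that rose at 6 h. Of those tested, 7 of 15 fell and 2 rose in KO1, 4 of 10 and 2 in KO2, and 9 of 15 and 3 in KI. Of all genes 31.1%, 38.3% and 36.8% fell, and 25.7%, 32.5% and 36.7% rose. The number that fell in KO2 is near the share of all genes, so nothing about the role is read from it. Cenpa, the histone variant of centromeres, fell in all 3 cohorts, in KO2 from 9.06, 11.9 and 19.1 CPM (lowest, median, highest) to 0, 0.677 and 1.33, a log2 fold change of -3.25 ± 0.25 (adjusted p = 3.1e-17). Top2a, the topoisomerase that untangles chromosomes, moved from 33.7, 37.3 and 17.7 CPM in the KO1 WT cultures S33, S34 and S35 to 7.96, 6.00 and 6.69. It fell by 1.08 ± 0.34 (adjusted p = 0.011), 1.13 ± 0.30 (0.00063) and 0.88 ± 0.20 (0.00021) on the log2 scale in KO1, KO2 and KI. Tacc3, a spindle protein, also fell in all 3, and Birc5, Cenpf and Kif2c were called in none of the cohorts that tested them.

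Tpx2 rose everywhere. It encodes the spindle assembly factor that activates Aurora A, and its CPM in the KO1 WT cultures S33, S34 and S35 was 8.06, 7.30 and 8.06 at rest and 17, 11 and 27.5 at 6 h. The lowest, median and highest libraries were at 1.03, 2.71 and 4.13 CPM at rest in KO2 WT and 7.29, 11.1 and 17.8 at 6 h, and at 2.35, 3.53 and 5.32 and then 12.4, 15.5 and 21.2 in KI WT. Every 6 h sample lay above every resting sample of its cohort. The log2 fold changes were 2.31 ± 0.40 (adjusted p = 7.5e-05), 2.95 ± 0.25 (4.7e-16) and 3.40 ± 0.17 (1.5e-21), while its partner kinase Aurka fell in KO1 (-2.02 ± 0.58, adjusted p = 0.0061) and was not called in KO2 (-0.74 ± 0.48, 0.17) or KI (-0.52 ± 0.35, 0.18).

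Mki67, a gene commonly read as a marker of dividing cells, did not follow the mitotic genes at 6 h. It stood at 18.4, 19.5 and 5.90 CPM in the resting KO1 WT cultures and at 6.28, 12.5 and 9.93 at 6 h, a log2 fold change of 0.45 ± 0.47 (adjusted p = 0.42). In KO2 WT it ran from 1.20 to 6.16 CPM at rest (median 3.91) and from 3.52 to 6.04 at 6 h (median 4.88), a log2 fold change of 1.17 ± 0.24 (adjusted p = 2.4e-05) that was 0.35 (0.18) under total counts. In KI WT it ran from 4.95 to 8.60 CPM (median 6.26) and then from 12.4 to 20.8 (median 15.4), a log2 fold change of 2.48 ± 0.18 (adjusted p = 3.1e-16). All 6 h libraries lay above all resting ones in KI, and the ranges overlapped in KO1 and KO2. Its promoter, printed above, holds the same words as that of Ccnb2, whose log2 fold change in KI was -1.87 ± 0.36 (adjusted p = 1.3e-05). Hmmr, a hyaluronan receptor that also binds spindle microtubules, had positive fold changes of 0.63 ± 0.22 (adjusted p = 0.019) in KO1 and 0.92 ± 0.21 (0.00017) in KI, which became -0.37 and -0.28 under total counts, and 0.00 ± 0.25 in KO2, which became -0.84.

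**Figure D3:**
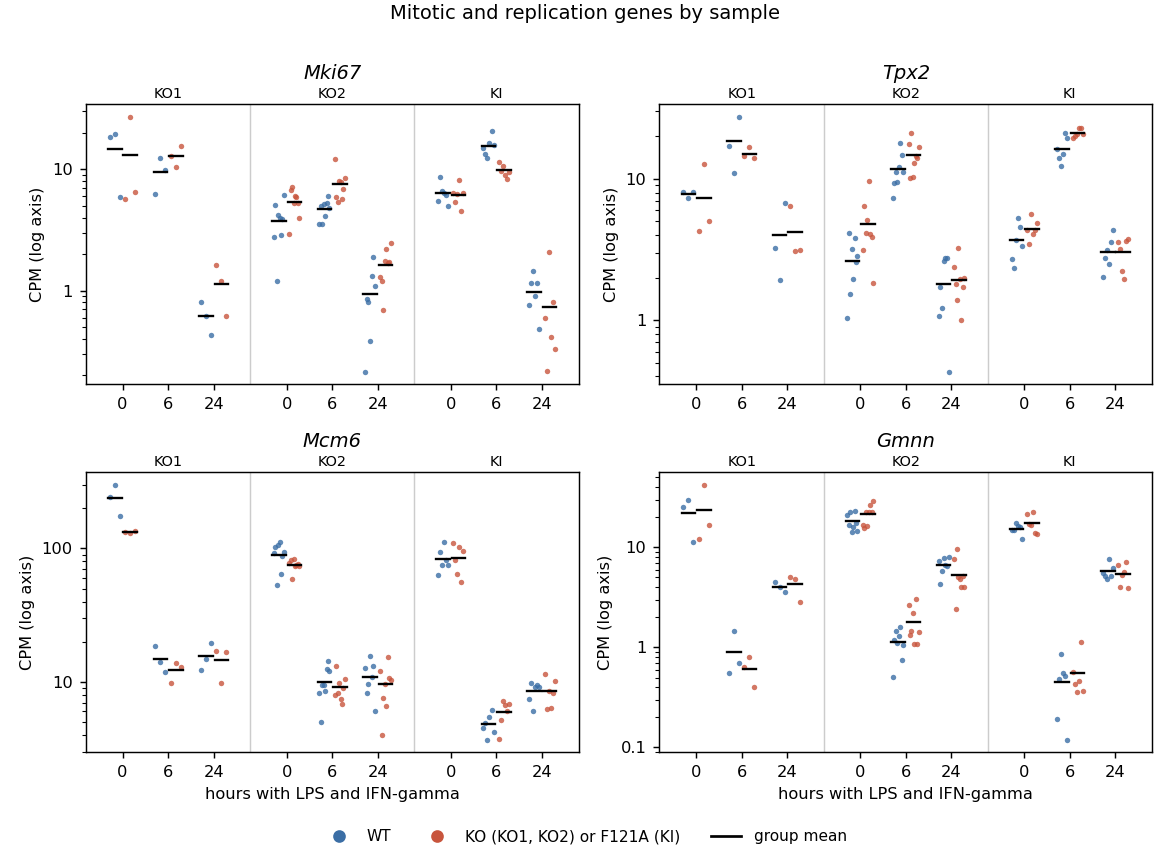
CPM (vertical log axis) of Mki67, Tpx2, Mcm6 and Gmnn at 0 h, 6 h and 24 h in WT and mutant samples of KO1, KO2 and KI, 1 point per culture or library, with a black bar at each group mean. Mcm6 and Gmnn drop at 6 h in every group, Tpx2 peaks at 6 h in every group, and the Mki67 mean is lowest at 24 h in every group.

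The nucleotide synthesis genes divided by enzyme. Rrm1 and Rrm2, the subunits of ribonucleotide reductase, fell in all 3 cohorts. Rrm1 stood at 93.8, 124 and 53.9 CPM in resting KO1 WT and at 13.8, 8.70 and 7.27 at 6 h, and its KI median moved from 20.2 to 1.18 CPM, again without overlap. Its log2 fold changes were -2.18 ± 0.27 (adjusted p = 1.4e-06), -1.35 ± 0.24 (2e-06) and -2.92 ± 0.27 (1.1e-12), and those of Rrm2 were -3.63 ± 0.65 (9.7e-05), -1.24 ± 0.49 (0.021) and -2.63 ± 0.51 (1.7e-05). Tyms, thymidylate synthase, had positive fold changes of 0.82 ± 0.21 (adjusted p = 0.0023) in KO1, 1.15 ± 0.18 (1.9e-07) in KO2 and 1.47 ± 0.30 (3.5e-05) in KI. Under total counts these became -0.21, 0.32 (adjusted p = 0.13) and 0.27 (0.30), none of them called higher. Its resting and 6 h CPM overlapped in all 3 cohorts, for example at 21.8, 20.6 and 19.7 and then 20.9, 15.1 and 17.9 in KO1. Tk1, thymidine kinase, was called higher in KI at 1.18 ± 0.16 (adjusted p = 8.6e-09), which became -0.03 under total counts, beside 0.64 ± 0.30 (0.075, and 0.68 with an adjusted p of 0.022 with the culture as a block) in KO1 and 0.39 ± 0.18 (0.053, and -0.42 under total counts) in KO2.

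Ccnd2, which encodes the G1 cyclin D2, had the largest fold change in each cohort. It stood at 6.95, 15.4 and 11.8 CPM in the resting KO1 WT cultures and at 841, 858 and 871 at 6 h. In KO2 WT its lowest, median and highest libraries were at 0.171, 0.631 and 0.971 CPM at rest, a total of 21 counts, and at 284, 346 and 378 at 6 h, and in KI WT they were at 1.12, 2.57 and 3.72 and then 757, 877 and 1045. The groups were far apart in every cohort. The log2 fold changes were 7.28 ± 0.43 (adjusted p = 1.3e-10), 10.00 ± 0.21 (1.1e-43) and 9.60 ± 0.23 (6.6e-33). The annotation places antisense genes over Ccnd2, and without strand their reads cannot be told from its own.

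Cdkn1a, p21, was already abundant at rest and rose further. It stood at 336, 195 and 355 CPM in resting KO1 WT and at 2396, 2622 and 1718 at 6 h, while in KO2 WT it ran from 98.5 to 160 CPM (median 120.96) and then from 2496 to 3244 (median 2657). In KI WT it ran from 85.3 to 119 CPM (median 107) and then from 1596 to 4045 (median 3530), with 1 library (number 5) at 1596 and the others from 3162. No resting sample came near a 6 h sample, and the log2 fold changes were 3.94 ± 0.36 (adjusted p = 3.7e-08), 5.30 ± 0.17 (1.9e-35) and 6.22 ± 0.19 (2.8e-29). Cdkn1b, p27, another CDK inhibitor, had fold changes of 0.75 ± 0.28 (adjusted p = 0.03), 0.98 ± 0.15 (1.2e-07) and 1.05 ± 0.16 (2.1e-07), but its CPM overlapped between 0 h and 6 h, and under total counts the values were -0.28, 0.14 (adjusted p = 0.38) and -0.16, none of them called higher.

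E2f1, an activator of replication genes, fell at 6 h and was higher again at 24 h. It stood at 16.4, 19.8 and 13.2 CPM in KO1 WT at rest, at 0.698, 0.858 and 1.04 at 6 h and at 8.84, 9.75 and 11 at 24 h. The KO2 medians were 19.6, 2.74 and 14.1 CPM and the KI medians 17.1, 1.05 and 9.17. All 6 h samples lay below all resting ones, with log2 fold changes of -3.19 ± 0.29 (adjusted p = 2.4e-08), -1.87 ± 0.19 (6.3e-13) and -2.80 ± 0.24 (7.7e-14). At 24 h against 0 h it was called in none of the 3, at 0.29 ± 0.21 (adjusted p = 0.28), 0.09 ± 0.16 (0.64) and 0.08 ± 0.17 (0.71), and total counts made this -0.74 in KO1 and -0.80 in KI.

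The other D cyclins differed between cohorts. Ccnd1, cyclin D1, stood at 210, 161 and 46.7 CPM in resting KO1 WT and at 143, 74.3 and 29.5 at 6 h, a log2 fold change of 0.19 ± 0.59 (adjusted p = 0.8), with culture S35 lowest at each time. In KO2 WT it ran from 13.7 to 24.6 CPM (median 15) and then from 19.1 to 35.9 (median 31.8), and rose by 1.70 ± 0.14 (adjusted p = 2.5e-16). In KI WT it ran from 7.25 to 13.6 CPM (median 12.5) and then from 4.10 to 6.83 (median 5.92), where all 6 h libraries were below all resting ones in CPM although the TMM-scaled fold change was 0.17 ± 0.17 (adjusted p = 0.37) and -1.04 under total counts. Ccnd3, cyclin D3, was called higher in KO2 (1.27 ± 0.15, adjusted p = 3.2e-11) and in KI (0.53 ± 0.14, 0.00078, but -0.68 under total counts). In KO1 it was -0.22 ± 0.29 (0.54), but -1.21 with an adjusted p of 0.0071 under total counts.

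**Figure D4:**
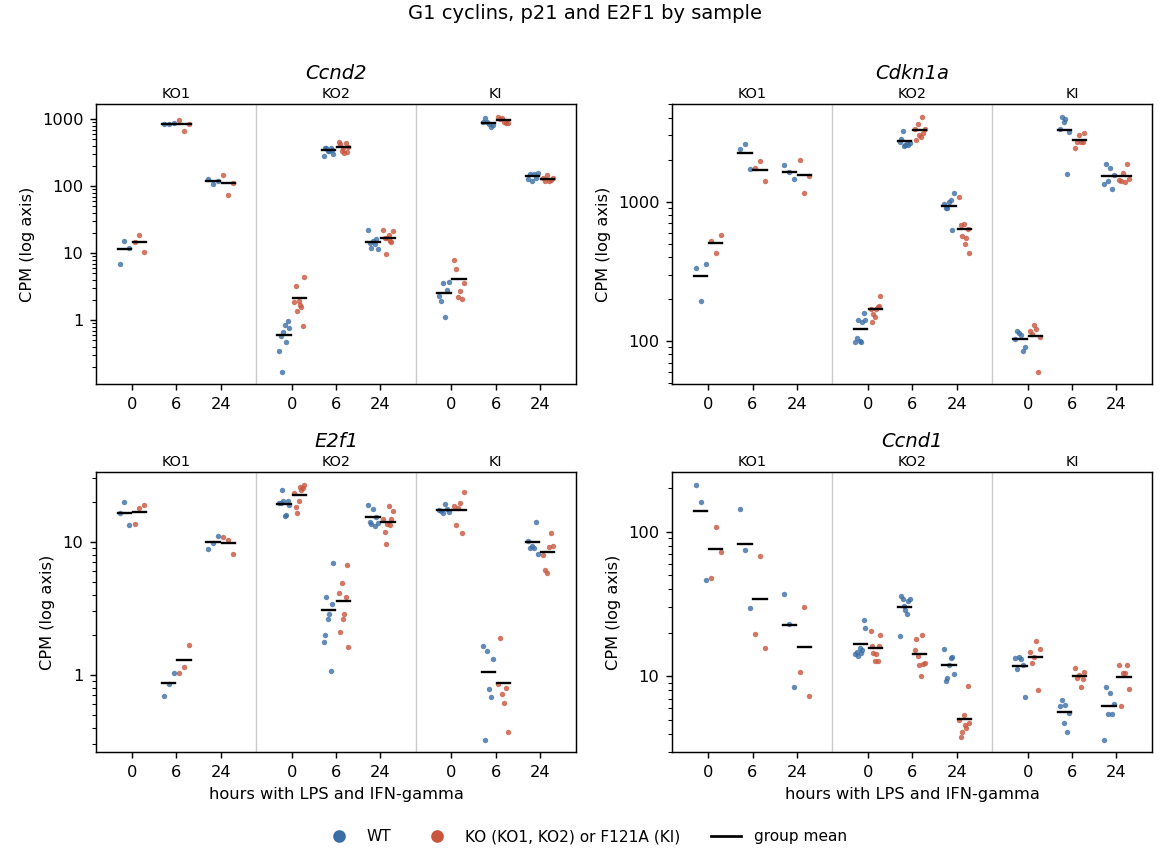
CPM (vertical log axis) of Ccnd2, Cdkn1a, E2f1 and Ccnd1 at 0 h, 6 h and 24 h in WT and mutant samples of KO1, KO2 and KI, 1 point per culture or library, with a black bar at each group mean. Ccnd2 and Cdkn1a peak at 6 h, E2f1 is lowest at 6 h and lies between the 6 h and 0 h means at 24 h, and Ccnd1 of KO2 separates by genotype after stimulation.

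Genes called in the same direction in all 3 cohorts were counted at 6 h. Of the 33 genes tested in all 3 cohorts, 16 fell in all (Ccna2, Cdk1, Bub1b, Cenpa, Tacc3, Top2a, the 6 Mcm genes, Gmnn, Rrm1, Rrm2 and E2f1) and 5 rose in all (Tpx2, Tyms, Ccnd2, Cdkn1a and Cdkn1b, of which Tyms and Cdkn1b were called higher in no cohort under total counts). Pcna alone was called in opposite directions. How many of all genes fell or rose in all 3 cohorts was not counted, so the agreement is not read as particular to the 44 genes. In CPM, 32 of the 44 genes tested lay wholly below rest and 3 wholly above in KO1. In KO2 it was 17 and 3 of 33, and in KI 32 and 4 of 43. The share of all genes without overlap was not counted, and unscaled CPM carries the total-count shift given above. Nothing about the genes is therefore read from these counts.

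At 24 h, in a comparison that shares the resting samples, most genes were still below rest in WT. In KO1, 32 of 44 genes fell and 3 rose against 0 h, where 20.6% of all genes tested fell and 21.3% rose. In KO2 22 of 33 fell and 3 rose, against 29.7% and 29.6%, and in KI 27 of 43 fell and 7 rose, against 29.9% and 33.9%. The medians were -2.07, -0.88 and -1.04, beside -0.11, -0.03 and 0.03 over all genes. Total-count scaling gave 40 lower and 2 higher, 25 and 3, and 34 and 3. The summed level of the 38 genes outside the G1 role went from 975 CPM at rest to 183 at 6 h and 135 at 24 h in KO1 WT, from 349 to 106 and 95.4 in KO2 WT, and from 356 to 131 and 105 in KI WT, with every 24 h sample below its cohort's resting range.

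The mitotic and spindle genes were lower at 24 h, Mki67 with them. All 9 mitotic cyclins and kinases fell in KO1, 3 of 5 in KO2 and 7 of 9 in KI, and of the anaphase, chromosome and spindle genes 10 of 15, 8 of 10 and 13 of 15 fell. Mki67 was at 0.812, 0.615 and 0.430 CPM in the KO1 WT cultures at 24 h, below every resting culture, with medians of 0.859 in KO2 and 1.03 in KI. Its log2 fold changes against rest were -3.52 ± 0.62 (adjusted p = 0.00013), -1.55 ± 0.30 (9.7e-06) and -1.75 ± 0.24 (2.5e-08). Top2a moved by -2.34 ± 0.36 (3.4e-05), -1.03 ± 0.27 (0.00082) and -1.77 ± 0.21 (7.4e-10). Ube2c, the E2 enzyme of the anaphase-promoting complex, fell from a mean of 5.69 to 0.320 CPM in KO1 and by 3.09 ± 0.69 on the log2 scale (adjusted p = 0.0013), and Ccnb1 fell by 1.27 ± 0.45 in KO1 (0.031) and by 1.34 ± 0.29 in KI (8.8e-05).

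Single genes marked the ends of that range. Bub1b fell in KO1 from a mean of 6.34 to 0.357 CPM (-3.11 ± 0.50, adjusted p = 5.2e-05), and Ccna2 fell in KO2 from 1.79 to 0.104 CPM (-3.40 ± 0.54, adjusted p = 2e-07). In KI WT, Ccna2 had 1 count in all 24 h libraries against 192 at rest, a ratio of 0.00407 with a counting interval from 0.000102 to 0.0229. Cenpa fell by 2.41 ± 0.21 in KO2 (adjusted p = 3.2e-15). Against their role, Tpx2 (0.65 ± 0.20, adjusted p = 0.0036) and Hmmr (0.52 ± 0.21, 0.026) were called higher in KI, and both turned negative under total counts, at -0.22 and -0.35. Tpx2 was 0.05 ± 0.41 in KO1 and 0.00 ± 0.26 in KO2.

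At 24 h all 10 replication genes fell in KO1, all 8 tested in KO2 and 5 of 9 in KI. Of the 4 nucleotide synthesis genes, 2 fell and 0 rose in KO1, 3 and 0 in KO2, and 2 and 1 in KI. Mcm6 was at 12.3, 14.8 and 19.5 CPM in KO1 WT at 24 h and at medians of 10.9 and 9.13 in KO2 and KI, with log2 fold changes of -2.92 ± 0.25 (adjusted p = 3.3e-08), -2.57 ± 0.17 (8.4e-20) and -2.43 ± 0.15 (1.3e-18). Mcm5 fell by 2.12 ± 0.30 (1.4e-05) in KO1 and 0.64 ± 0.21 (0.0084) in KO2. Its KI value was -0.08 ± 0.18 (0.79), but -0.95 with an adjusted p of 8.6e-06 under total counts. Pcna fell by 1.04 ± 0.32 (0.013) in KO1 and 1.59 ± 0.15 (3.8e-14) in KO2. Its KI value was -0.13 ± 0.11 (0.29), but -1.01 with an adjusted p of 4.2e-09 under total counts. Whether these fold changes differ between cohorts was not tested. Rrm2 was listed at 0.0902, 0.351 and 0.0861 CPM in KO1 WT, 6 counts in all, and fell by 5.41 ± 0.74 (adjusted p = 9.6e-06), by 3.14 ± 0.55 in KO2 (1.7e-06) and by 2.78 ± 0.47 in KI (2e-06). Rrm1 fell by 2.62 ± 0.27 in KO1 (adjusted p = 3e-07). Tk1 was -0.70 ± 0.31 in KO1 (adjusted p = 0.076), with the culture as a block -0.69 (0.033), and under total counts -1.73 (0.00068). Tyms was called higher in KI, at 0.75 ± 0.30 (0.028), but was -0.12 under total counts.

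Of the G1 genes, Ccnd2, Ccnd3 and Cdkn1a were called above rest at 24 h in all 3 cohorts, though not Ccnd3 in KO1 under total counts. Ccnd2 was at 128, 108 and 120 CPM in KO1 WT and at medians of 14.1 in KO2 and 142 in KI, above all resting samples, with log2 fold changes of 4.41 ± 0.38 (adjusted p = 2.9e-08), 5.08 ± 0.23 (3.5e-27) and 6.6 ± 0.21 (2.7e-28). Cdkn1a was at 1850, 1636 and 1462 CPM in KO1 WT and at medians of 967 and 1494, with log2 fold changes of 3.50 ± 0.36 (2.5e-07), 3.41 ± 0.16 (2e-27) and 4.77 ± 0.18 (5.3e-26). Ccnd3 rose by 1.02 ± 0.27 (0.0056; -0.01 under total counts), 1.54 ± 0.14 (3.1e-14) and 1.79 ± 0.13 (6.8e-16). Ccnd1 fell in KO1 by 1.58 ± 0.61 (0.044), from 210, 161 and 46.7 to 37, 23 and 8.44 CPM. That call was lost with DESeq2 (adjusted p = 0.059) and without culture S33 (0.10), S34 (0.16), S36 (0.068) or S38 (0.050), with fold changes from -1.63 to -1.54. Ccnd1 was -0.03 ± 0.15 in KO2 and -0.05 ± 0.17 in KI. Under total counts it was called lower in both, at -0.48 (adjusted p = 0.0064) and -0.93 (1.3e-05). Cdkn1b was 0.10 ± 0.28 in KO1 (-0.94 under total counts) and -0.13 ± 0.16 in KO2 (-0.60 with an adjusted p of 0.00086 under total counts). In KI it was 0.99 ± 0.16 (adjusted p = 4.3e-07, but 0.12 with an adjusted p of 0.53 under total counts). In all 3 cohorts 16 of 33 genes fell, and Ccnd2, Ccnd3 and Cdkn1a rose, with the exception just given for Ccnd3. The share of all genes that did so in all 3 was not counted.

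Between 6 h and 24 h the roles parted. In KO1 WT, 12 genes fell and 9 rose, against 25.9% and 28.7% of all genes. In KO2, 11 fell and 7 rose, against 28% and 31%, and in KI 13 fell and 14 rose, against 31.8% and 33.6%, shares near the background. Total counts gave 11 lower and 7 higher, 10 and 12, and 12 and 15. Genes that fell in all 3 cohorts were Tpx2, Mki67, Tyms (in KI -0.39 with an adjusted p of 0.16 under total counts), Tk1 and Ccnd2, and those that rose in all 3 were Cenpa, Mcm2, Mcm4, Gmnn and E2f1. Mki67 fell by 3.97 ± 0.62 in KO1 (adjusted p = 3.5e-05) and 4.24 ± 0.22 in KI (1.3e-20), and Tpx2 by 2.95 ± 0.25 in KO2 (2.5e-15). Gmnn rose from a mean of 0.907 to 4.06 CPM in KO1 (2.13 ± 0.49, 0.0013), from 1.12 to 6.63 in KO2 (2.19 ± 0.24, 1.8e-11) and from 0.456 to 5.77 in KI (3.45 ± 0.27, 5.8e-15). E2f1 rose by 3.47 ± 0.29 (2.3e-08), 1.95 ± 0.19 (4.4e-13) and 2.88 ± 0.24 (7.6e-14). Without WT culture S33 the number lower in KO1 became 6. With the culture as a block, Cdkn1b (-0.65 ± 0.29, adjusted p = 0.062) and Rrm2 (-1.78 ± 1.04, 0.15) also passed in KO1, at -0.68 (0.040) and -1.75 (0.021).

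Among the rest of the 6 h to 24 h changes, those against their role were few. Pcna fell by 1.20 ± 0.15 in KO2 (adjusted p = 6.8e-10) and 1.18 ± 0.11 in KI (1.1e-12) while 4 of 8 and 7 of 9 replication genes rose. Cenpa rose by 1.98 ± 0.74 in KO1 (0.029), 0.85 ± 0.31 in KO2 (0.017) and 2.57 ± 0.47 in KI (8.3e-06). Tacc3 rose by 1.20 ± 0.28 in KO2 (0.00022) and 1.51 ± 0.29 in KI (1.3e-05). Aurkb rose in KO1 (2.47 ± 0.69, 0.0054) and in KI (2.68 ± 0.72, 0.0012), Bub1 rose in KI (2.36 ± 0.64, 0.0015) and Ccnb2 fell there (-2.44 ± 0.58, 0.00034). Rrm1 rose in KI by 2.29 ± 0.29 (3.9e-09) while Tyms fell in KO1 by 0.95 ± 0.21 (0.00092) and Tk1 in KO2 by 1.3 ± 0.20 (1.3e-07). Ccnd2 fell from its peak by 4.91 ± 0.15 in KO2 (1.4e-34) and 3.0 ± 0.16 in KI (6.5e-20), and Ccnd3 rose in KO1 (1.24 ± 0.29, 0.0015) and KI (1.26 ± 0.13, 5.1e-11).

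Markers of other cell types moved as well. The summed level of 8 granulocyte-monocyte progenitor markers went from a median of 4.13 CPM at rest to 1.62 at 6 h and 0.541 at 24 h in KO1 WT, from 1.98 to 0.336 and 0.215 in KO2 WT, and from 12.7 to 3.16 and 0.822 in KI WT. At rest all 8 had counts in KO1 WT, 6 in KO2 WT (Ctsg and Ms4a3 at 0) and 7 in KI WT (Ms4a3 at 0). The 5 monocyte markers went from 136 CPM at rest to 207 at 6 h and 66.8 at 24 h in KO1 WT, from 8.24 to 116 and 19.9 in KO2 WT, and from 182 to 148 and 25.8 in KI WT. The 7 dendritic cell markers were higher at 6 h than at rest in all 3 WT groups, at 35.6, 271 and 86.4 CPM (0 h, 6 h, 24 h) in KO1, 6.47, 27.7 and 12.3 in KO2, and 9.53, 78.8 and 118 in KI. The 9 neutrophil markers were lower, at 213, 152 and 30.4 CPM in KO1, 44.9, 18.5 and 28.7 in KO2, and 89.4, 34.4 and 44.6 in KI. They also differed by genotype in KO2 at 24 h, at 74.0 in KO against 28.7 in WT. The 5 B cell markers were at 4.53, 0.808 and 0.351 CPM in KO1 WT, 0.369, 0.0944 and 0.171 in KO2 WT, and 0.772, 0.228 and 0.152 in KI WT. Over the 18 groups, medians of stromal markers ran from 0.927 to 14.4 CPM, T and NK cell markers 0.0716 to 3.04, mast cell and basophil markers 0 to 0.810, and erythroid markers 0 to 0.237. The part of these cells in the changes was not tested.

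In mutant cells, too, more of the genes fell than rose after stimulation. At 6 h, 22 of 44 genes fell and 6 rose in KO1 KO (30.4% and 25% of all genes), 21 of 33 fell and 9 rose in KO2 KO (40.5% and 33.8%), and 27 of 43 fell and 10 rose in KI F121A (37.9% and 36.6%), with medians of -1.38, -1.25 and -1.79. The KO1 median became -0.58 without culture S37 and -0.62 without the resting libraries that stand apart, an alternative chosen after seeing the data. Under total counts the medians were -2.68, -2.04 and -3.09. Total counts gave 37 lower and 3 higher, 25 and 4, and 37 and 4. At 24 h, 24 fell and 3 rose (18.5% and 19.9%), 22 fell and 4 rose (30.6% and 27.7%), and 28 fell and 9 rose (32.4% and 33.9%), with medians of -1.31, -0.98 and -0.93, and total counts gave 39 and 2, 29 and 3, and 38 and 3. Without KO culture S38, 3 genes rose at 6 h in KO1. Of the 33 genes tested in all cohorts, 16 fell and 4 rose in all 3 mutants at 6 h (Tpx2, Mki67, Ccnd2 and Cdkn1a, where Mki67 turned to -0.02 in KO1 under total counts), and Hmmr was called in opposite directions. The matching share of all genes was not counted.

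At 6 h Mcm6 fell, and Ccnd2, Tpx2 and Cdkn1a rose, in the mutants of all 3 cohorts. Mcm6 stood at 132, 130 and 136 CPM in the resting KO1 KO cultures S36, S37 and S38 and fell by 2.19 ± 0.25 (adjusted p = 5.2e-07), by 2.24 ± 0.17 in KO2 (6.5e-18) and by 2.51 ± 0.15 in KI (1.1e-18). Ccnd2 rose by 7.20 ± 0.43 (1.8e-10), 8.32 ± 0.18 (8.2e-43) and 9.20 ± 0.22 (7.5e-33), from means of 14.6, 2.13 and 4.06 CPM to 838, 384 and 976. Tpx2 rose by 2.38 ± 0.40 (5.4e-05), 2.39 ± 0.22 (3.1e-14) and 3.55 ± 0.16 (5.5e-23), and Cdkn1a by 3.0 ± 0.35 (7.3e-07), 5.07 ± 0.17 (1.1e-34) and 6.00 ± 0.19 (6.6e-29). Mki67 stood at 5.70, 27.1 and 6.48 CPM in the resting KO1 KO cultures, highest in S37, and at 12.9, 10.4 and 15.5 at 6 h. Its fold changes were 1.41 ± 0.46 (0.014), 1.28 ± 0.22 (6.4e-07) and 1.97 ± 0.18 (6.2e-13).

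Cenpa fell by 4.12 ± 0.25 in KO2 KO (adjusted p = 5e-22), E2f1 by 2.39 ± 0.25 (2.3e-07), 1.87 ± 0.18 (4e-14) and 3.02 ± 0.25 (1.9e-14), and Gmnn by 2.74 ± 0.19 in KO2 (4.3e-19). In KI F121A, Aurkb had 1 count at 6 h against 223 at rest, a ratio of 0.00439 (interval 0.000111 to 0.0247). Aurkb fell by 2.42 ± 0.48 in KO1 (0.00028), Ccna2 by 3.06 ± 0.47 in KO2 (7.7e-08), and Rrm1 by 1.72 ± 0.26 (1.9e-05), 1.63 ± 0.23 (1.3e-08) and 2.55 ± 0.26 (8.2e-12). Members called against their role were Hmmr in KO1 (0.58 ± 0.22, 0.03) and KI (0.79 ± 0.21, 0.001), Tyms in KO1 (0.70 ± 0.20, 0.0065) and KO2 (0.81 ± 0.17, 3.3e-05), Tk1 in KO2 (0.52 ± 0.18, 0.0099) and KI (0.95 ± 0.16, 9e-07), and Pcna in KI (1.05 ± 0.11, 1.3e-11). These values are of the size of the shift that total counts bring in the mutants.

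At 24 h, the mutants' Mcm6 was lower by 2.12 ± 0.25 (adjusted p = 1.6e-06), 2.32 ± 0.17 (4.4e-18) and 2.36 ± 0.15 (3.5e-18), and Ccnd2 was higher by 4.0 ± 0.37 (9.7e-08), 3.71 ± 0.19 (2.1e-25) and 5.94 ± 0.20 (1.6e-27). Aurkb fell in KO1 (-2.30 ± 0.46, 0.00054), Top2a in KO1 (-1.82 ± 0.37, 0.0006), Ccna2 in KO2 (-2.72 ± 0.46, 8.9e-07), Cenpa in KO2 (-2.99 ± 0.22, 4.4e-18), Rrm1 in KO1 (-1.79 ± 0.26, 2.4e-05), Rrm2 in KO2 (-3.10 ± 0.50, 3.2e-07) and Mki67 in KI (-2.14 ± 0.26, 1.7e-09). In KI F121A, Ccnb2 had 2 counts against 218 at rest (ratio 0.00820, interval 0.000987 to 0.0300) and Rrm2 had 3 against 131 (ratio 0.0205, interval 0.00417 to 0.0612). Tyms (0.41 ± 0.18, 0.043) was called higher in KO2, by less than the shift that total counts bring there, and Pcna (0.33 ± 0.11, 0.007), Tk1 (0.37 ± 0.16, 0.035), Hmmr (0.57 ± 0.21, 0.016) and Tpx2 (0.44 ± 0.19, 0.036, but -0.53 under total counts) were called higher in KI, each by less than that shift. Ccnd1 was -1.16 ± 0.61 in KO1 (0.14, and -1.38 with an adjusted p of 0.0002 with the culture as a block). It was -0.98 ± 0.16 in KO2 (6.5e-07) and 0.49 ± 0.16 in KI (0.0059, but -0.48 under total counts), and was thus called in opposite directions, as were Pcna and Tk1. Between 6 h and 24 h, 9 genes fell and 7 rose in KO1 KO, where 48.1% of all genes were called, 10 and 9 in KO2 KO (55.5%), and 12 and 14 in KI F121A (65.1%). Without S36 or without S38 the number that rose in KO1 became 4, and under total counts the splits were 6 and 7, 9 and 11, and 7 and 15.

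From 6 h to 24 h the mutants' Mki67 and Tpx2 fell while Gmnn, E2f1 and Cenpa rose. Mki67 fell by 3.77 ± 0.57 in KO1 (adjusted p = 2.5e-05), and Tpx2 by 2.95 ± 0.25 in KO2 (1.4e-15) and 3.11 ± 0.17 in KI (2.7e-20). Gmnn rose by 2.59 ± 0.49 (0.00028), 1.28 ± 0.22 (9.9e-07) and 2.91 ± 0.25 (1e-13), and E2f1 by 2.68 ± 0.26 (1.6e-07), 1.87 ± 0.18 (1.8e-13) and 2.94 ± 0.25 (1.5e-13). Ccnd2 fell by 4.61 ± 0.14 in KO2 (1.6e-34) and 3.26 ± 0.16 in KI (4.4e-21). Cenpa rose by 2.71 ± 0.74 (0.0052), 1.13 ± 0.33 (0.0029) and 3.71 ± 0.50 (1.5e-08).

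The loss of Beclin1 was compared at each time, and in KO1 no member was called. At 0 h, 6 h and 24 h, 0 of 44 genes passed edgeR's test, where 0.0219%, 0.0219% and 0.0073% of all genes did, and 0 passed the test of genotype by time, where 0% of all genes did. At an unadjusted p under 0.05 there were 10 at 0 h, 1 at 6 h, 0 at 24 h and 5 by time. Of all 13693 genes tested, 846, 655, 948 and 636 reached it. DESeq2 called 1 of the 44 genes at 0 h and 0 at the other times. The median log2 difference at 0 h was -0.34, beside 0.01 over all genes. Mcm6, at 244, 299 and 176 CPM in WT and 132, 130 and 136 in KO, had all KO cultures below all WT cultures and a difference of -0.95 ± 0.23 that did not pass (adjusted p = 0.27). Leaving out WT culture S35 gave 1 call at 0 h, and testing every gene with a count gave 5 at 0 h and 1 at 6 h. Without the filter, Ccnd1 was called at 0 h (-1.05, adjusted p = 0.012) and was the 1 gene called at 6 h (-1.17, 0.0051).

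In KO2, where knockout and sex cannot be told apart, 2 genes were called at 0 h, 3 at 6 h and 3 at 24 h of 33 tested, where 8.28%, 15.4% and 11.3% of all genes were. Pcna was lower in KO at rest (43.3, 57.6 and 77.4 CPM, lowest, median and highest, against 74.1, 80.7 and 135 in WT) and at 6 h (23.2, 28.2 and 37.5 against 27, 36.4 and 59.3). The ranges overlapped, and the log2 differences were -0.85 ± 0.14 (adjusted p = 8.2e-06) and -0.67 ± 0.14 (0.00052). Ccnd2 was higher in KO at rest, at 0.828, 1.79 and 4.48 CPM against 0.171, 0.631 and 0.971, a difference of 1.63 ± 0.33 (0.0004) at a level of a few counts per library. With total counts 5 genes were called at 0 h and 7 at 6 h. The 9 mitotic cyclins and kinases together were at 29.7 ± 7.53 CPM in resting KO and 16.5 ± 2.66 in WT (SD, n = 8 each). Their ranges of 16.1 to 39.8 and 13.5 to 22.1 overlapped. None of the 5 tested was called, but Aurkb was called higher under total counts (1.33, adjusted p = 0.027). Leaving out the filter gave 4 calls at 0 h.

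Ccnd1 separated the KO2 genotypes after stimulation. At rest it ran from 12.8 to 20.5 CPM in KO and from 13.7 to 24.6 in WT, at 6 h from 10.1 to 19.4 (median 13.1) and from 19.1 to 35.9 (median 31.8), and at 24 h from 3.81 to 8.54 (median 4.67) and from 9.28 to 15.5 (median 12). The 24 h ranges did not overlap and the 6 h ranges met at their ends. The log2 differences were -1.31 ± 0.14 at 6 h (adjusted p = 1.1e-10) and -1.20 ± 0.16 at 24 h (1.1e-07), and both stayed called in all 7 alternatives. Ccnd3 was lower in KO at 6 h (5.40, 8.06 and 12.6 CPM against 9.58, 13.1 and 13.5; -0.76 ± 0.14, 9.9e-05). At 24 h Cdkn1a was lower (429, 603 and 1084 CPM against 624, 967 and 1161; -0.54 ± 0.14, 0.0067, and -0.39 with an adjusted p of 0.17 when libraries were summed by number) and Tyms was higher (5.22, 8.30 and 13.1 CPM against 2.97, 5.48 and 7.96; 0.71 ± 0.19, 0.0053). The genotype difference changed with time for 6 of 33 genes, where 11.9% of all genes did: Ccnd1 (adjusted p = 0.00013), Ccnd2 (0.0017), Cdkn1a (0.0087), Ccnd3 (0.012), Pcna (0.024) and Aurkb (0.044).

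In the F121A cohort, 0 of 43 genes were called at rest, where 2.94% of all genes were, and 0 by DESeq2. An unadjusted p under 0.05 was reached by 4 of the 43, and by 1337 of all 11500 genes tested. At 6 h 4 genes were called, where 11.5% of all genes were, and at 24 h 3, where 7.2% were. Ccnd1 was higher in F121A at 6 h, at 8.46, 9.95 and 11.5 CPM (lowest, median and highest) against 4.10, 5.92 and 6.83 in WT, with no overlap and a log2 difference of 0.86 ± 0.17 (adjusted p = 0.00046). At 24 h it was at 6.23, 10.5 and 12 CPM against 3.64, 5.96 and 8.43, a difference of 0.71 ± 0.17 (0.0041). Mki67 was lower in F121A at 6 h, at 8.36, 9.63 and 11.5 CPM against 12.4, 15.4 and 20.8, also without overlap (-0.62 ± 0.17, 0.01). These 3 differences were called in all 9 alternatives.

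The other F121A calls were less firm. Tpx2 was at 19.5, 20.9 and 23 CPM in F121A at 6 h and 12.4, 15.5 and 21.2 in WT (0.43 ± 0.14, adjusted p = 0.04, and 0.060 to 0.17 in the 4 alternatives that lost it). Ccnb1 was at 0.123, 0.297 and 0.476 CPM against 0.358, 0.684 and 1.25 (-1.3 ± 0.42, 0.036, and 0.099 to 0.22 in 3 alternatives). At 24 h Pcna was at 27.1, 32.4 and 40.4 CPM against 23, 26 and 29.6 (0.35 ± 0.11, 0.038, and 0.052 to 0.19 in 4 alternatives), and Ccnd3 was at 17, 23.6 and 27.6 against 28.2, 31.9 and 39.6, without overlap (-0.46 ± 0.13, 0.017, and 0.051 under total counts). Genotype by time was called for Ccnd3 (0.018), 1 of 43 genes, where 8.29% of all genes were.

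**Figure D5:**
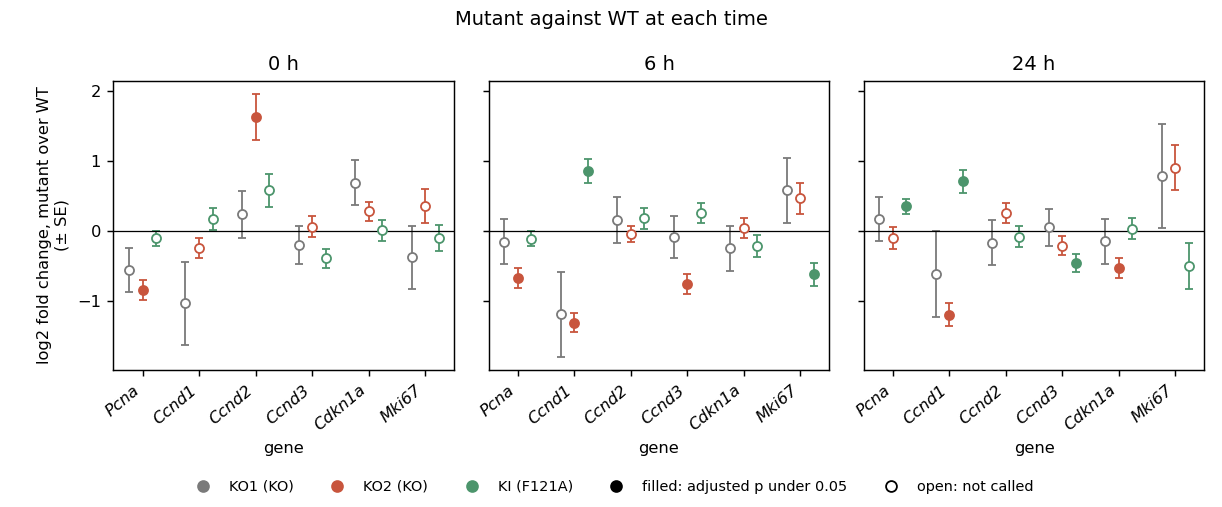
Log2 difference of mutant against WT with its SE for Pcna, Ccnd1, Ccnd2, Ccnd3, Cdkn1a and Mki67 at 0 h, 6 h and 24 h in KO1, KO2 and KI, filled where the adjusted p was under 0.05. Ccnd1 lies below 0 in KO2 at 6 h and 24 h (-1.31 and -1.20) and above 0 in KI (0.86 and 0.71), and no KO1 value is filled.

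Differences between the cohorts' genotype effects were tested in a joint fit of all 18 groups, in which KO2 minus KO1 and KO2 minus KI share the KO2 samples. Between the knockout cohorts 0 of 44 genes differed at 0 h, 6 h or 24 h, where 0.703%, 0.681% and 0.299% of all genes did. There 16, 4 and 2 had an unadjusted p under 0.05, as did 1374, 1203 and 911 of all 13369 genes tested. DESeq2 called 0 of the 44 genes. For Ccnd1 the KO1 differences were -1.04 ± 0.60, -1.19 ± 0.61 and -0.61 ± 0.62, none called with the filter on low counts, and the KO2 minus KO1 difference at 6 h was -0.11 ± 0.39. The 0 h count rested on single cultures: it was 5 without WT culture S35, 6 without KO culture S37, 6 without the resting libraries that stand apart (an alternative chosen after seeing the data) and 2 without the filter.

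KO2 and KI differed for a few genes. These differences carry sex and Cre beside the Beclin1 allele, since the KO2 genotypes differ in both and the KI genotypes in neither. At 0 h 1 gene was called, where 2.15% of all genes were, at 6 h 3, where 8.97% were, and at 24 h 1, where 4.82% were. Pcna differed at 0 h by -0.75 ± 0.21 (adjusted p = 0.037, and 0.20 under total counts). At 6 h Ccnd1 differed by -2.13 ± 0.35 (4.3e-06), Ccnd3 by -0.98 ± 0.22 (0.00084) and Mki67 by 1.13 ± 0.33 (0.016), and at 24 h Ccnd1 differed by -1.93 ± 0.38 (0.00013). Summing libraries by number left 0, 1 and 0 calls.

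Another 96 cell cycle genes were read in 4 lists. Of G1/S kinases, E2F factors and pocket proteins, 7 of 18 fell and 3 rose at 6 h in KO1 WT, 8 and 7 of 16 in KO2 WT and 8 and 8 of 18 in KI WT. Of all genes tested there, 31.1% fell and 25.7% rose in KO1, 38.3% and 32.5% in KO2, and 36.8% and 36.7% in KI, so nothing about this list is read from its counts. Cdk4, the partner of the D cyclins, fell by 2.25 ± 0.25, 1.70 ± 0.11 and 1.76 ± 0.11 on the log2 scale. Rbl1, the pocket protein p107, had fold changes of 3.27, 3.26 and 4.01, and E2f5, a repressor E2F, 1.74, 1.76 and 1.84. Myc, a growth-promoting transcription factor, moved by -4.10, -2.82 and -5.06, and E2f2 by -2.12, -4.89 and -4.40. Ccne1, cyclin E1, had log2 fold changes at 24 h of 3.14, 4.86 and 5.05.

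Of inhibitors and growth arrest genes, 6 fell and 7 rose of 15 in KO1 and in KO2, and 6 and 8 of 15 in KI. Gadd45b, a stress-induced growth arrest gene, led the higher ones at 5.63, 4.99 and 5.59, with Ccng2 at 3.30, 2.11 and 2.94, and Foxo3 led the lower ones at -3.01, -2.25 and -2.81. Of replication origin, fork and chromatin genes, 19 of 26 fell and 1 rose in KO1, 14 and 3 of 19 in KO2 and 12 and 5 of 20 in KI. Dnmt1, the maintenance DNA methyltransferase, moved by -3.49, -2.86 and -3.87, and Cdt1, the licensing factor that geminin binds, by -1.96, -1.36 and -1.56. Of further mitosis and cytokinesis genes, 19 of 32 fell and 2 rose in KO1, 13 and 3 of 22 in KO2 and 20 and 4 of 29 in KI. Cdc25b, a phosphatase that activates CDK1, moved by -3.95, -4.90 and -5.24, while Pttg1, securin, had fold changes of 3.18, 3.13 and 3.62.

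At 24 h against rest in WT, 20.6% of all genes tested fell and 21.3% rose in KO1, 29.7% and 29.6% in KO2, and 29.9% and 33.9% in KI. Of the G1/S list, 6 of 18 fell and 4 rose in KO1, 5 of 16 and 4 in KO2, and 7 of 18 and 3 in KI. Of inhibitors and growth arrest genes, 2 of 15 fell and 7 rose in KO1, 6 of 15 and 7 in KO2, and 4 of 15 and 8 in KI. Of replication origin, fork and chromatin genes, 15 of 26 fell and 0 rose in KO1, 10 of 19 and 1 in KO2, and 6 of 20 and 3 in KI, the last a share near the background. Of further mitosis and cytokinesis genes, 22 of 32 fell and 1 rose in KO1, 14 of 22 and 3 in KO2, and 21 of 29 and 2 in KI. By genotype, edgeR called 0 genes of the 4 lists in KO1. In KO2 KO at 0 h, 0 of 16 G1/S genes were lower and 1 higher. The calls were 0 and 2 of 15 inhibitors, 1 and 0 of 19 replication genes, and 0 and 3 of 22 mitosis genes. Of all genes 8.28% were called. At 6 h the 4 lists had 1 and 1, 1 and 4, 0 and 1, and 0 and 3 (15.4% of all genes). At 24 h they had 2 and 2, 1 and 1, 0 and 2, and 0 and 1 (11.3%). Nothing about the lists is read from these counts. Among the genes called, Ccne1 was higher in KO at 0 h (1.63 ± 0.36, adjusted p = 0.0014), 6 h (1.43 ± 0.21, 4.4e-07) and 24 h (0.62 ± 0.18, 0.013). Myc was lower at 6 h (-1.22 ± 0.40, 0.027) and higher at 24 h (1.57 ± 0.39, 0.0032). In KI F121A at 6 h, Cdkn2d (1.33 ± 0.15, 1.3e-08), Cdkn2b (1.07 ± 0.27, 0.0056), Gadd45g (1.51 ± 0.33, 0.0012), Mdm2 (0.40 ± 0.09, 0.0012) and Gadd45b (0.38 ± 0.11, 0.013) were higher, 5 of the 15 inhibitors and growth arrest genes tested, where 11.5% of all genes were called. The other lists had fewer calls there, all higher. They were 2 of 18 G1/S genes (Rbl1 and E2f5), 1 of 20 replication genes (Cdt1) and 1 of 29 mitosis genes (Pttg1). No enrichment is read from 1 list of the 4.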

How the data were processed

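RNA of 137 samples in 18 groups was sequenced after Smart-Seq2 amplification, which primes on poly(A), keeps no strand and adds no molecular barcodes. The deposited values are raw read counts per gene, which the authors made with TopHat and HTSeq on mm10, per the submitters' processing notes, where no versions are named. The gene annotation and counting options are not given in the sources used here. The 3 repeat libraries of each KO1 culture and time were summed. Among 467 pairs of libraries of 1 group the counts differed beyond sampling noise (smallest chi-square per degree of freedom 2.79), so none was taken for a copy.

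Each cohort was fitted separately with edgeR 4.0.16 in R 4.3.3 (limma 3.58.1 installed with it): filterByExpr with a minimum count of 10 and a minimum total of 15, TMM scaling, 1 mean per group, quasi-likelihood F-test, Benjamini-Hochberg adjustment over all genes tested (13693 in KO1, 10794 in KO2, 11500 in KI, 13369 in the joint fit of all groups). SE is the size of the log2 fold change divided by the root of F. CPM is a gene's share of all counts in genes, without TMM. The scripts were tested on simulated data. Alternatives were DESeq2 1.42.0, its size factors, total counts, fits of only the groups compared, all genes with a count in place of the filter, libraries summed by number, a replicate block, and samples left out. A KO1 number names a culture at all 3 times and so pairs its samples over time, although their deviations from the group means correlated at only -0.161 to 0.322. In KO2 and KI the numbers name libraries, correlated at over 0.1 throughout in 0 of 9 comparisons each, and were not taken as pairs.

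The 44 genes, their roles and the other lists were chosen with earlier results of these data known. Genes named with full values are, per role and comparison, the called member of smallest adjusted p and called members that go against their role, beside Ccnd1, Ccnd2, Ccnd3, Cdkn1a, Cdkn1b, E2f1, Mki67, Top2a, Ccnb1, Mcm5, Pcna, Rrm2 and Becn1. Names of overlapping genes and promoter windows come from annotation of build GRCm38.p6, the same assembly version family as mm10.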

Additional observations from a re-analysis of the deposited data

Results flagged for a closer look

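Of 204 groups of values examined (a gene or a role sum in a group of 6 to 8 libraries), 22 held a library far from the others, where chance alone gives about 1 in 20. The groups are not independent, since sums of the G1 genes repeat Cdkn1a of the same library, and some values rest on few counts. No excess over chance is therefore read from the 22. The part of RNA quality, depth or labels in these values was not tested.

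In KO2, library 9 of resting KO stood at 295 CPM for the summed G1 genes, the others at 199 to 245. At 6 h, WT library 4 stood at 3244 CPM for Cdkn1a (others 2496 to 2817) and 3686 for the summed G1 genes (others 2894 to 3259). WT library 6 stood at 3.11 CPM for Top2a (others 0.793 to 1.66), and KO library 6 at 1.44 for Ccnb1 (others 0 to 0.574). At 24 h, WT library 9 stood at 0.867 CPM for Rrm2 (others 0 to 0.270) and WT library 8 at 25 for the anaphase, chromosome and spindle genes (others 16.3 to 18.7). KO library 8 stood at 8.54 CPM for Ccnd1 (others 3.81 to 5.44). KO library 1 stood at 20.6 CPM for Ccnd3 (others 13.8 to 16.8), 1084 for Cdkn1a (others 429 to 689) and 1155 for the summed G1 genes (others 498 to 748). KO library 4 stood at 13.8 CPM for Cdkn1b (others 7.94 to 10.3) and 1.38 for Ccnb1 (others 0.168 to 0.653). It has the fewest counts of the KO2 libraries (1448218), so its Ccnb1 value rests on very few counts.

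In KI at rest, WT library 6 stood at 7.25 CPM for Ccnd1 (others 11.2 to 13.6), and F121A library 5 at 60.3 for Cdkn1a (others 107 to 130), 28.5 for Pcna (others 52.5 to 59.0) and 93.6 for the summed G1 genes (others 173.5 to 198). At 6 h, WT library 5 stood at 1596 CPM for Cdkn1a (others 3162 to 4045), WT library 2 at 1.14 for Top2a (others 2.44 to 3.22) and F121A library 2 at 1.88 for E2f1 (others 0.369 to 0.860). At 24 h, WT library 5 stood at 14 CPM for E2f1 (others 8.00 to 10.1) and F121A library 3 at 2.07 for Mki67 (others 0.218 to 0.803).

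Genotype effects that differed between times passed edgeR's test of genotype by time over both later times together. In KO2 the log2 difference at 6 h and at 24 h, each minus that at 0 h, was -0.87 and -2.56 for Aurkb, 0.18 and 0.75 for Pcna, -1.06 and -0.95 for Ccnd1, -1.67 and -1.37 for Ccnd2, -0.82 and -0.28 for Ccnd3, and -0.24 and -0.82 for Cdkn1a. In KI it was 0.65 and -0.066 for Ccnd3. Between cohorts, the KO2 effect minus the KI effect was -0.75 for Pcna at 0 h, 1.13 for Mki67, -2.13 for Ccnd1 and -0.98 for Ccnd3 at 6 h, and -1.93 for Ccnd1 at 24 h, each called in the joint fit. The KO2 effects carry sex and Cre as well.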

How the results depend on the processing

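For 54 counts of called genes, 506 of 552 values under an alternative stayed within 1.5 times of the reported count. Low counts limit the mitotic genes most, and 11 of the 44 genes could not be tested in KO2. The causes of the changes below were not tested.

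Under total counts, genes higher at 6 h in WT became 3 in KO1, 5 in KO2 and 4 in KI, and in mutants 3, 4 and 4, with 37 lower in KO1 KO. At 24 h 3 were higher in KI WT and in F121A and 39 lower in KO1 KO. From 6 h to 24 h 12 were higher in KO2 WT and 7 lower in F121A. Genotype calls became 5 at 0 h and 7 at 6 h in KO2, 1 at 24 h and 0 by time in KI, and 0 between KO2 and KI at 0 h. DESeq2 called 1 at 0 h in KO1, 5 at 24 h in KO2, 2 by time in KI and 2 between KO2 and KI at 24 h. With no filter the calls were 5 at 0 h and 1 at 6 h in KO1, 4 at 0 h in KO2, 2 at 6 h and 2 by time in KI, 2 between KO2 and KO1 at 0 h and 2 between KO2 and KI at 24 h. With only the groups compared, 1 was called at 0 h in KO2, and 8 fell and 9 rose from 6 h to 24 h in KI WT. Libraries summed by number gave 3 by time in KO2, 2 at 6 h in KI, and 0, 1 and 0 between KO2 and KI at 0 h, 6 h and 24 h. Without the samples of conflicting labels 2 were called at 6 h in KI. Without the resting libraries that stand apart, an alternative chosen after seeing the data, 6 were called between KO2 and KO1 at 0 h and 2 between KO2 and KI at 24 h.

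Leaving out each KO1 culture in turn gave 6 to 14 genes lower from 6 h to 24 h in WT, 3 to 7 higher at 6 h and 4 to 7 higher from 6 h to 24 h in KO, 0 to 1 genotype calls at 0 h, and 0 to 6 calls between KO2 and KO1 at 0 h. With the replicate number as a block, KO1 WT had 26 lower and 7 higher at 6 h and 35 lower and 3 higher at 24 h, KO2 had 5 calls by time and KI had 4 at 6 h. No blocked count moved by over 1.5 times, and of the genes named with values the block changed no call in KO1 beside those given for Tk1, Cdkn1b, Rrm2 and Ccnd1.

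Fold changes that turned under total counts, against 0 h, were as follows. At 6 h in WT, KO1 gave Cdkn1b -0.28, Tyms -0.21 and Hmmr -0.37, KO2 gave Tk1 -0.42 and Hmmr -0.84, and KI gave Ccnd1 -1.04, Ccnd3 -0.68, Cdkn1b -0.16, Pcna -0.16, Tk1 -0.031 and Hmmr -0.28. At 24 h in WT, KO1 gave Ccnd3 -0.0089, Cdkn1b -0.94 and E2f1 -0.74, and KI gave E2f1 -0.80, Tpx2 -0.22, Tyms -0.12, Tk1 -0.69 and Hmmr -0.35. In mutants, Mki67 was -0.022 in KO1 and Ccnd1 -0.16 in KO2 and -0.46 in KI at 6 h, and at 24 h E2f1 was -0.78 in KO1 and -0.65 in KO2, and in KI Ccnd1 was -0.48 and Tpx2 -0.53. The median of the genes from 6 h to 24 h in WT became 0.28 in KO2 and 0.27 in KI under total counts, 0.060 and 0.074 with no filter, and 0.012 in KI with only the groups compared.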
